A study of Mus musculus with 6 samples.

Results

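The genes examined here encode the subunits of the mitochondrial respiratory chain and of ATP synthase, with some of the factors that assemble them. They were taken by symbol from the gene table of 2 murine keratinocyte lines: names that start with Nduf, Uqcr, Cox4 to Cox8, Sdha to Sdhd or Atp5, and Cyc1 and Cycs. The rule found 100 of the 24982 genes listed. By textbook role, 85 were structural subunits (cytochrome c included), 12 were assembly factors, and 3, Cox7a2l, Ndufa4l2 and Atp5s, belonged to neither class.

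Both lines came from neonatal skin of C57BL/6 mice and received no treatment. The KSFM-Ca2+ cells were derived and kept in a low-calcium keratinocyte medium without serum. The DKSFM cells were grown out of the KSFM-Ca2+ cells after a change to the defined medium DKSFM, to which they were adapted, so medium and adaptation cannot be told apart. Each group held 3 RNA libraries, and the labels do not say that these were separate cultures, so the p-values measure a spread between libraries that may be technical. The study compared these lines to learn how their expression programs differ.

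The values were mean read coverage per base of each gene, a measure already set to gene length. Total coverage was 1601676.1, 1238410.7 and 1057750.5 in KSFM-Ca2+ replicates 1 to 3, and 1174348.4, 1239437.8 and 1170674.9 in DKSFM replicates 1 to 3. The coverage was then scaled between libraries, and every value below is this normalized coverage unless it is called listed. The files gave no counts, and the listed values came in steps of 0.1. With reads estimated from coverage, gene length and a read length of 85 bases, the typical variance between libraries of a group was 1.601 to 2.64 times that expected from counting alone. A gene was tested when its normalized coverage reached 0.5 in at least 3 libraries, which 12409 genes and 92 of the 100 members did. Fold changes are DKSFM over KSFM-Ca2+ on the scale of log2(coverage + 0.1), and a gene is called higher or lower where limma's Benjamini-Hochberg adjusted p over all tested genes fell under 0.01.

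The keratinocyte label was checked by marker genes. Krt14, the basal keratin, had 11991 ± 242 in the KSFM-Ca2+ libraries and 29679 ± 1520.4 in the DKSFM libraries (SD, n = 3), and all 5 keratinocyte markers were detected in every library and were higher in the DKSFM cells. Their summed coverage was 18595, 19056 and 18660.0 in the KSFM-Ca2+ libraries and 44468, 40652 and 44989 in the DKSFM libraries. Markers of other skin cells were low. Of 7 fibroblast genes 6 were listed at 0 in all libraries, collagen genes among them, and the most abundant, Pdgfra, summed with the rest to 1.14, 0.893 and 1.299 and 2.33, 2.10 and 2.23. The 6 melanocyte genes summed to 4.12, 3.97 and 4.61 and 17.3, 18.7 and 18.3, most of it Mitf, with Tyr and Dct listed at 0 throughout. The 5 immune genes, led by Cd74, summed to 1.22, 1.59 and 1.89 and 0, 0.1996 and 0, with Cd3e and H2-Ab1 at 0. The 3 endothelial genes, led by Pecam1, summed to 2.67, 2.78 and 3.07 and 8.04, 8.18 and 7.10, with Cdh5 at 0. The 3 adipocyte genes, led by Fabp4, summed to 8.16, 7.84 and 5.08 and 0.635, 1.10 and 0.106, with Plin1 at 0. In such bulk RNA, fewer cells of a type and less RNA per cell cannot be told apart.

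The respiratory chain lies in the inner mitochondrial membrane. Complexes I and II take electrons from NADH and succinate, complex III passes them to cytochrome c, complex IV hands them to oxygen, and complex V uses the proton gradient so built to make ATP. Complex II is encoded wholly in the nucleus, while the others also hold subunits encoded by mitochondrial DNA, which were not analysed here. In the epidermis, mitochondrial oxygen radicals have been linked to keratinocyte differentiation.

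The respiratory chain genes did not move as a block. Of the 92 tested members, 28 were higher in the DKSFM cells, 40 were lower and 24 did not pass the test. The 40 include Cox6a2, which passed the filter only through the KSFM-Ca2+ libraries. With quantile normalization 34 were higher and 35 lower. The higher members made up 30.4% and the lower ones 43.5% of those tested, beside 35.3% higher and 37.3% lower among all 12409 tested genes. Their log2 fold changes had a median of -0.03, against -0.01 for all tested genes, and of 0.00 without Cox6a2, so its sign rested on that gene. All 3 DKSFM libraries lay above all 3 KSFM-Ca2+ libraries in 35 members and below them in 42, which is 38.0% and 45.7% of those tested, while the same held for 41.0% and 42.3% of all tested genes. Cox6a2 is also among the 42.

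The changes were small in size. A change of at least 2-fold that passed the test was found in 4 members, or 4.35%, against 23.7% of all tested genes. These were Ndufa4 and Sdhaf1, which rose, Uqcrc2, which fell, and Cox6a2. The last passed the filter only through the KSFM-Ca2+ libraries and was listed at 0 in the DKSFM libraries, so the size of its change rests on the added 0.1. The median absolute log2 fold change was 0.29 in the members and 0.49 in all tested genes, and the interquartile ranges were 0.52 and 0.98. The members are mostly highly expressed, and no comparison with genes of the same level was made. Together they took 2.54%, 2.51% and 2.56% of the coverage of the KSFM-Ca2+ libraries and 2.69%, 2.66% and 2.61% of that of the DKSFM libraries, so the groups did not overlap. This rested on Ndufa4, without which the shares overlapped.

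**Figure D1:**
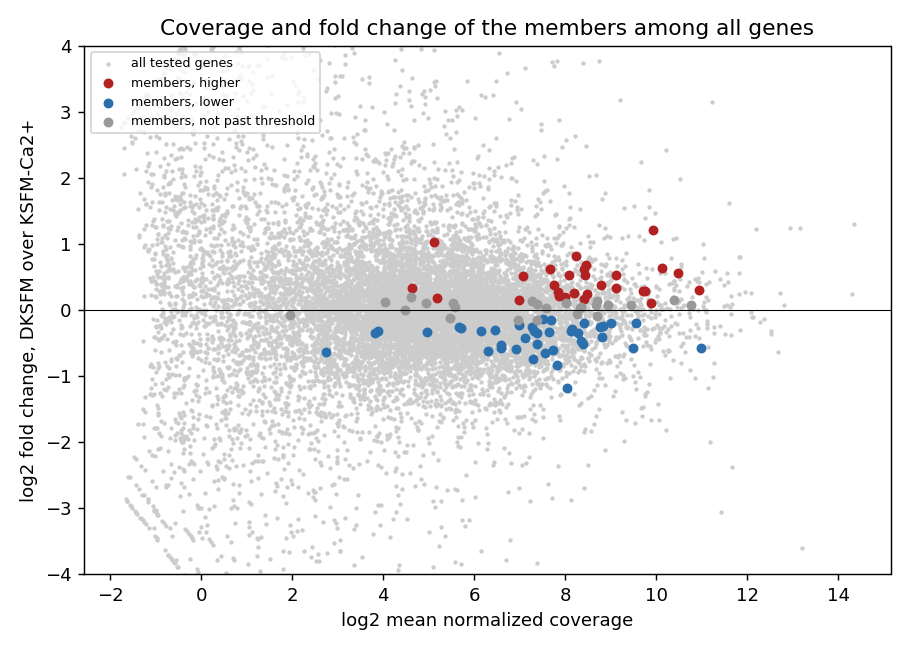
Log2 fold change of DKSFM over KSFM-Ca2+ (vertical axis) against log2 mean normalized coverage (horizontal axis) for all 12409 tested genes in grey, with the members coloured by call. Members sit mostly toward high coverage and near 0, and Ndufa4 is the member with the largest rise, while genes beyond 4 in size and Cox6a2 are not drawn.

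Within the complexes, members of the same complex moved in opposite directions. Only complex II had all its tested structural subunits on the same side. The next paragraphs follow the electrons from complex I to ATP synthase. Their counts, and those of the other gene lists below, stand beside 35.3% higher and 37.3% lower among all 12409 tested genes.

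**Figure D2:**
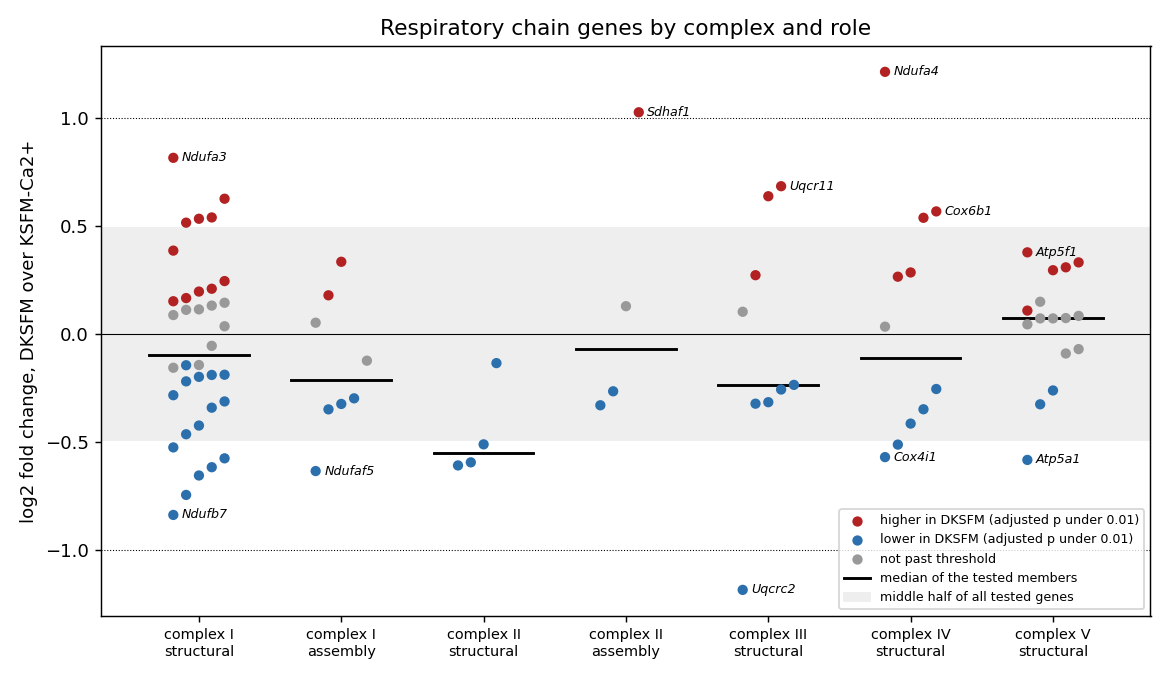
Log2 fold change of each tested member (points, coloured by call) by complex and role, with the median of each group as a bar. The grey band holds the middle 50% of all tested genes and dotted lines mark 2-fold; Cox6a2 counts in the median but its point is not drawn.

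Complex I, the NADH dehydrogenase, was represented by 37 structural subunits, of which 36 were tested. Of these, 11 were higher (30.6%), 16 were lower (44.4%) and 9 did not pass, with a median log2 fold change of -0.10. Its summed coverage was 8188, 8101 and 8379 in the KSFM-Ca2+ libraries and 8258, 8151 and 7958 in the DKSFM libraries, and these ranges overlapped. Without Ndufa3 the sum was lower in every DKSFM library, at 7959, 7891 and 8155 against 7863, 7760 and 7580. The changes that passed the test ran from -0.84 to -0.14 in the lower subunits and from 0.15 to 0.81 in the higher ones, so both directions were about equally wide.

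The most abundant was Ndufb9, an accessory subunit of the membrane arm, with 793, 801 and 828 in the KSFM-Ca2+ libraries and, in the DKSFM cells, 689, 699 and 724 (log2 fold change -0.20 with a standard error of 0.03, adjusted p = 3.38e-04). All DKSFM values were below all KSFM-Ca2+ values, but 19% of the 85-base stretches of its transcripts also occur in another gene, so reads may have been shared. Its log2 fold change was -0.13 with quantile normalization, and its call was lost with only the 4 libraries whose files are named as combined (KSFM-Ca2+ replicate 3 and all DKSFM libraries, adjusted p = 0.0106). The largest rise was that of Ndufa3, a small membrane-arm subunit (chromosome 7 from 3617373 to 3620327). Its coverage was 228, 209.8 and 224 in the KSFM-Ca2+ libraries and, in the DKSFM cells, 395, 391 and 377 (log2 fold change 0.81 with a standard error of 0.04, adjusted p = 2.73e-07). The groups were far apart. Ndufb7, also of the membrane arm, was the subunit that fell furthest (chromosome 8 from 83566671 to 83571626), from 272, 279 and 315 to 173, 165 and 148 (log2 fold change -0.84 with a standard error of 0.07, adjusted p = 8.84e-06). KSFM-Ca2+ replicate 3 was the highest library, and the groups did not overlap.

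The complex divides into a matrix arm, which oxidises NADH, and a membrane arm, which pumps protons. Of 16 matrix-arm subunits, 3 were higher, 8 were lower and 5 did not pass, with a median of -0.14. Of 19 membrane-arm subunits, 8 were higher, 7 were lower and 4 did not pass, with a median of 0.11. Higher and lower subunits made up 18.8% and 50% of the matrix arm and 42.1% and 36.8% of the membrane arm. Among all tested genes these shares were 35.3% and 37.3%, to which the membrane arm was close. The difference between the arms was not tested, and the membrane-arm median was -0.03 after a correction for transcript length and GC content. Ndufs1, Ndufs7 and Ndufs8, which hold iron-sulfur centres, were named after their values were seen. Ndufs1 had 385, 368 and 380.0 and then 271, 278 and 272 (log2 fold change -0.46 with a standard error of 0.03, adjusted p = 1.14e-06), while Ndufs7 had 188, 186 and 189.9 and then 244, 242 and 252 (log2 fold change 0.39 with a standard error of 0.03, adjusted p = 3.74e-06). With the length and GC correction Ndufs7 moved to 0.18 and Ndufs8, below, to -0.31. The call for Ndufs8 (log2 fold change -0.19, adjusted p = 0.00332) was lost without KSFM-Ca2+ replicate 1 or 3 or DKSFM replicate 2 or 3, with adjusted p = 0.0160, 0.0171, 0.0142 and 0.0117. It was also lost with quantile normalization (adjusted p = 0.0164), no trend (adjusted p = 0.0157) or only the libraries named as combined (adjusted p = 0.0409).

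The 8 complex I assembly factors, which build the arms but are not kept in the finished enzyme, were far less abundant, with group means from 5.19 to 96.6 against 29.5 to 807 for the structural subunits. Of the 8, 2 were higher, 4 were lower and 2 did not pass, with a median of -0.21. Ndufaf5, which modifies the core subunit Ndufs7, had the largest fall, from 7.39, 8.53 and 8.38 to 5.61, 5.19 and 4.77 (log2 fold change -0.63 with a standard error of 0.09, adjusted p = 2.87e-04). The values were low and the groups did not overlap, but the call was lost with only the libraries named as combined (adjusted p = 0.0146). The summed coverage of the assembly factors was 287, 281 and 291 in the KSFM-Ca2+ libraries and 267, 269 and 266 in the DKSFM libraries, lower in each DKSFM library. This rested on Ndufaf2, the most abundant of them, without which the sums overlapped.

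Complex II, succinate dehydrogenase, links the citric acid cycle to the chain, and its 4 subunits were all lower in the DKSFM cells. The median was -0.55, and the summed coverage was 789.6, 771 and 808 against 579, 567 and 584, a ratio of 0.731. Sdhc, a membrane anchor (chromosome 1 from 171127165 to 171150603), was the most abundant subunit on the mean of all libraries. In the main fit it was also the most reduced one, just ahead of Sdha. It had 255, 249 and 267 and then 168, 168 and 171 (log2 fold change -0.61 with a standard error of 0.03, adjusted p = 5.50e-07). The other subunits were named after their values were seen. Sdha, the flavoprotein that oxidises succinate, had 147, 144 and 147 and then 97.7, 95.2 and 97.4 (log2 fold change -0.59 with a standard error of 0.03, adjusted p = 2.90e-07). Sdhd, the second anchor, had 195, 189.8 and 199 and then 136, 132 and 142 (log2 fold change -0.51 with a standard error of 0.04, adjusted p = 3.19e-06). In all of these the groups were well apart. Sdhb, the iron-sulfur subunit, differed least, with 193, 188 and 194 and then 178, 172 and 174 (log2 fold change -0.13 with a standard error of 0.03, adjusted p = 0.00236). Its libraries did not overlap, but its call was lost without KSFM-Ca2+ replicate 1 (adjusted p = 0.0136) or replicate 3 (adjusted p = 0.0105). The call was also lost without a trend (log2 fold change -0.13, adjusted p = 0.0115). With quantile normalization the log2 fold change shrank to -0.06 and the call was lost (adjusted p = 0.0975). It was lost too with only the libraries named as combined, at a log2 fold change of -0.15. The log2 fold change of Sdhb was -0.21 with the length and GC correction.

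The assembly factors of complex II differed in direction. Of 4, 1 was higher, 2 were lower and 1 did not pass, with a median of -0.07, and their difference from the subunits was not tested. The median of these factors was 0.01 with the length and GC correction. Sdhaf1, a factor needed for the iron-sulfur centres of Sdhb (chromosome 7 from 30321406 to 30323895), had 21.9, 20.6 and 25.9 in the KSFM-Ca2+ libraries and, in the DKSFM cells, 46.6, 47.9 and 44.3 (log2 fold change 1.02 with a standard error of 0.08, adjusted p = 6.42e-06). The DKSFM libraries were all above 44, and the KSFM-Ca2+ libraries all below 26. It stood just past 2-fold, and its log2 fold change was 0.96 without KSFM-Ca2+ replicate 2. The lower factors were Sdhaf2 and Sdhaf4, with log2 fold changes of -0.33 and -0.26, and both calls were lost with only the libraries named as combined. Sdhaf3 had a log2 fold change of 0.13 (adjusted p = 0.0778), and passed with the length and GC correction (adjusted p = 0.00250).

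**Figure D3:**
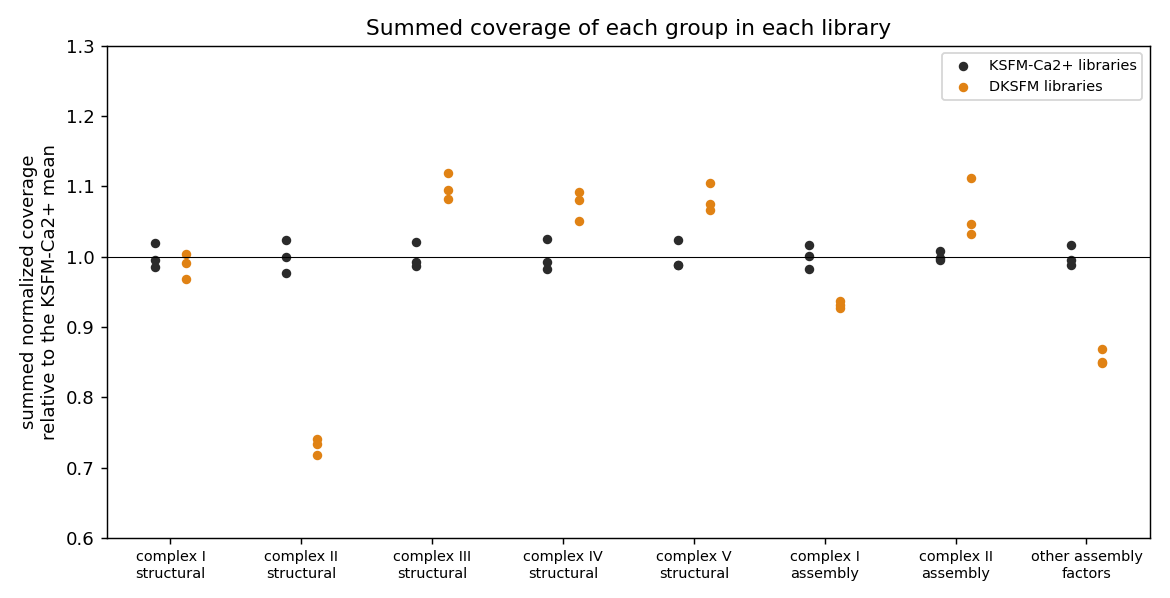
Summed normalized coverage of each group of genes in each library (points, 3 per line), divided by the mean of the KSFM-Ca2+ libraries. The DKSFM libraries lie lowest for complex II, at a ratio of 0.731, and above the KSFM-Ca2+ libraries for complexes III, IV and V, which for III rests on Uqcr10 and for IV on Ndufa4.

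Complex III, the cytochrome bc1 complex, showed the widest contrast among its members in the main fit, Cox6a2 of complex IV left aside. With the length and GC correction complex IV spanned more, from -0.70 to 1.24, against -1.11 to 0.53 in complex III. Of 9 tested, 3 were higher, 5 were lower and 1 did not pass, with a median of -0.24, yet its summed coverage was higher, at 3095, 3076 and 3186 against 3416, 3492 and 3376. Without Uqcr10 the sum was lower in every DKSFM library, at 2222, 2228 and 2269 against 2068, 2103 and 2014. Uqcrc2, a core protein of the matrix side (chromosome 7 from 120635176 to 120659524), had 357, 363 and 379 and then 162, 158 and 164. This was the largest fall of any member with coverage in both groups (log2 fold change -1.18 with a standard error of 0.03, adjusted p = 1.51e-08). Its partner core protein Uqcrc1 had 245, 243 and 260.5 and then 264, 264 and 275. All its DKSFM values lay above all its KSFM-Ca2+ values, but it did not pass the test (log2 fold change 0.10, adjusted p = 0.0270). It passed in 2 of 19 settings and was named after its values were seen.

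The small subunits of complex III went both ways. Uqcr10, the most abundant of the complex, had 873, 848 and 917 and then 1348, 1389 and 1363 (log2 fold change 0.64 with a standard error of 0.03, adjusted p = 5.50e-07). Uqcr11 had the largest rise (chromosome 10 from 80402997 to 80406830), from 274, 274 and 259 to 439, 437 and 419 (log2 fold change 0.68 with a standard error of 0.03, adjusted p = 3.76e-07). Uqcrh was higher (0.27), while Uqcrb (-0.31, adjusted p = 1.54e-04) and Uqcrq (-0.24, adjusted p = 8.03e-04) were lower, all named after their values were seen. These calls were lost with only the libraries named as combined, and those of Uqcrh and Uqcrq also with the window shift removed (described below). In Uqcr10 and Uqcr11 the groups were far apart.

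Cytochrome c1 and cytochrome c, which pass electrons from complex III onward, had different calls in the main fit, and the difference between them was not tested. Cyc1, which carries the c-type haem of complex III (chromosome 15 from 76343523 to 76346260), had 167, 168 and 171 and then 137, 143 and 143, a fall past the test (log2 fold change -0.26 with a standard error of 0.03, adjusted p = 6.37e-05). It was -0.43 with the length and GC correction. Cycs, the soluble carrier, had 22.0, 22.3 and 22.2 and then 23.1, 23.1 and 20.7. The libraries overlapped, the log2 fold change was 0.00 (standard error 0.0551, adjusted p = 0.954), and its 95% interval in the main fit was -0.12 to 0.13. With the window shift removed, both genes were lower and past the threshold. Cyc1 then had -0.39 (adjusted p = 5.62e-06) and Cycs -0.22 (adjusted p = 0.00678), which lies outside that interval. Of the 85-base stretches of Cycs, 25.6% occur in 4 other genes, so its level is uncertain.

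Complex IV, cytochrome c oxidase, had 18 structural symbols, of which 12 were tested. Of these, 5 were higher, 6 were lower and 1 did not pass. The 6 include Cox6a2, which passed the filter only through the KSFM-Ca2+ libraries, so its call is no evidence of a fall. The median was -0.11 with Cox6a2 and 0.03 over the other 11, so its sign rested on that gene. The summed coverage was 7633, 7559.9 and 7891 in the KSFM-Ca2+ libraries and 8401, 8315 and 8089 in the DKSFM libraries. Without Ndufa4 the groups overlapped, at 7051, 6990.0 and 7286 against 7053, 6918 and 6764.

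The gene with the highest coverage of all members in the KSFM-Ca2+ cells, Cox4i1 (chromosome 8 from 120668222 to 120674207), encodes the widely expressed isoform of subunit 4. It had 2368, 2399 and 2499.9 in the KSFM-Ca2+ libraries and, in the DKSFM cells, 1673, 1642 and 1585 (log2 fold change -0.57 with a standard error of 0.03, adjusted p = 9.01e-07). With the shift of its chromosomal window removed, as described below, the call was lost and the sign turned (0.07, adjusted p = 0.0688). The opposite held for Ndufa4, first named as a complex I subunit and now placed in complex IV (chromosome 6 from 11900292 to 11907497). It had 582, 569.9 and 605 and then 1346, 1396 and 1325 (log2 fold change 1.21 with a standard error of 0.03, adjusted p = 1.50e-08), which was the largest rise among the members. In both genes the groups did not overlap. The paralogs Cox4i2 and Ndufa4l2, which other tissues or low oxygen call on, were listed at 0.2 or less in every library and were not tested.

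The other isoform sets showed the same use of the common copies. Cox6b1 had 1150.2, 1129 and 1192 and then 1748, 1698 and 1694 (log2 fold change 0.57 with a standard error of 0.03, adjusted p = 5.21e-07; lost with the window shift removed, adjusted p = 0.921), while Cox6b2 was listed at 0 throughout. Cox6a1 had 759, 741 and 784 and then 967, 894 and 920.3 (log2 fold change 0.28 with a standard error of 0.04, adjusted p = 1.22e-04), and was not past the threshold after a correction for transcript length and GC content (log2 fold change 0.11, adjusted p = 0.0115) or with only the libraries named as combined (adjusted p = 0.0248). Cox6a2, the copy of heart and skeletal muscle, was listed at 1.3, 1.4 and 0.9 in the KSFM-Ca2+ libraries and at 0 in all DKSFM libraries. It entered the test only through the KSFM-Ca2+ libraries, and no fold is given against a group listed at 0. Of 5 skeletal muscle markers Mylpf was the most abundant, with 14.7, 15.8 and 13.1 and then 7.62, 9.28 and 8.38, and Myl1 was at 0 throughout. The part of such transcripts in the Cox6a2 values was not tested.

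Cox7a2 fell, from 348, 335 and 357 to 271, 275 and 270.3 (log2 fold change -0.35 with a standard error of 0.03, adjusted p = 1.23e-05), a call lost with the window shift removed (adjusted p = 0.0290). Cox7a2l, which has been linked to supercomplexes of complexes III and IV, rose from 259, 280.2 and 264 to 405, 404 and 423 (log2 fold change 0.62 with a standard error of 0.04, adjusted p = 1.05e-06). The groups did not overlap in either gene. Of the transcripts of Cox7a2l, 11.6% of the 85-base stretches occur in another gene. The muscle copy Cox7a1 was listed at 0.2, 0 and 0.5 and then at 0.9, 0.5 and 0.4 and was not tested. Cox8a, the common copy of subunit 8, fell from 513, 495 and 534 to 392, 392 and 372 (log2 fold change -0.41 with a standard error of 0.04, adjusted p = 1.25e-05), and Cox8b and Cox8c were listed at 0 in all libraries. The remaining untested members were Cox7b2 and Ndufb4c, also listed at 0 throughout.

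**Figure D4:**
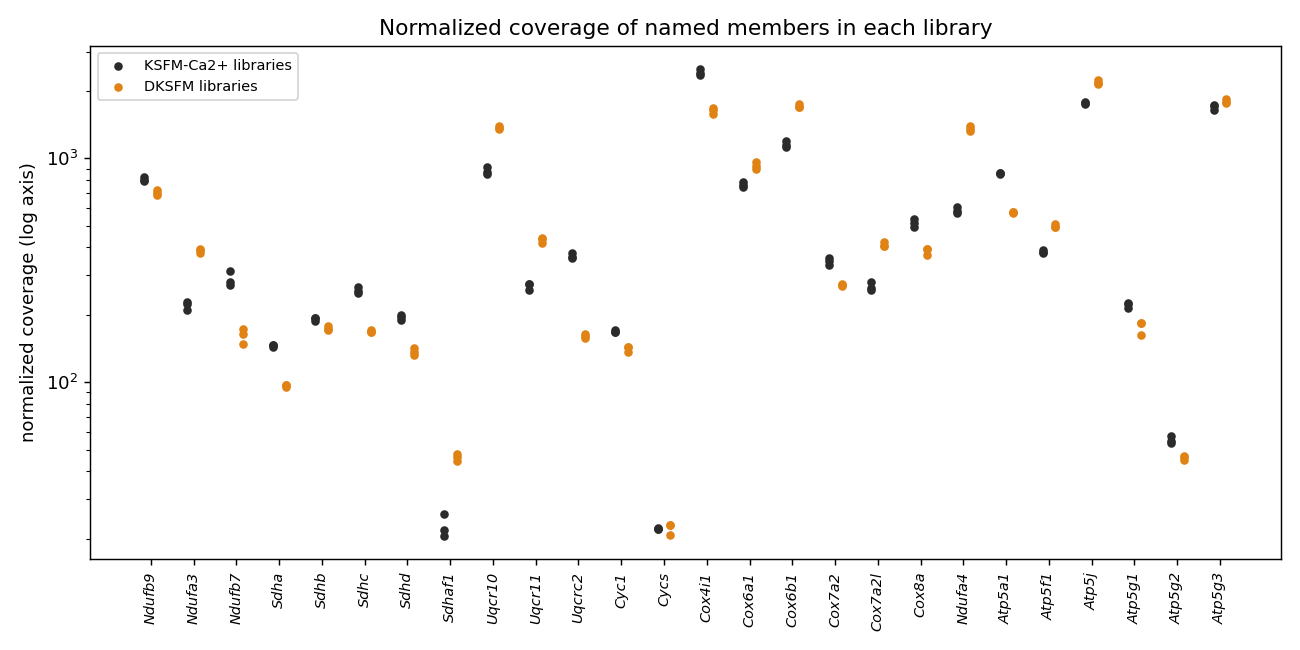
Normalized coverage (log axis) of 26 members in each library, with KSFM-Ca2+ libraries in black and DKSFM libraries in orange. Replicates lie close together, so that the groups separate in all genes shown except Cycs.

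Complex V, the ATP synthase, had 16 structural members, all tested. Of these, 5 were higher, 3 were lower and 8 did not pass, with a median of 0.07. The summed coverage was 10622, 10615 and 10998 in the KSFM-Ca2+ libraries and 11868, 11452 and 11547 in the DKSFM libraries, and the groups did not overlap. The most abundant was Atp5j, of the stalk that holds the head still (chromosome 16 from 84827866 to 84835625), with 1749, 1769.9 and 1787 and then 2247, 2177 and 2146 (log2 fold change 0.31 with a standard error of 0.03, adjusted p = 1.29e-05). The largest rise was that of Atp5f1, of the same stalk (chromosome 3 from 105942698 to 105960099), with 378, 382 and 391 and then 507, 495 and 493 (log2 fold change 0.38 with a standard error of 0.03, adjusted p = 2.77e-06). Of its 85-base stretches, 11.5% occur in another gene, and its sign turned with the window shift removed (-0.12, adjusted p = 0.00315).

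In the main fit the catalytic head showed an uneven change. Atp5a1, the alpha subunit, had the largest fall of the complex, from 864, 859.7 and 854 to 577, 567 and 579 (log2 fold change -0.58 with a standard error of 0.02, adjusted p = 1.18e-07). Its partner beta subunit Atp5b, which holds the catalytic sites, had 903, 912 and 911 and then 986, 968 and 984 (log2 fold change 0.11 with a standard error of 0.02, adjusted p = 0.00265). The alpha libraries were close to the beta libraries in the KSFM-Ca2+ cells and well below them in the DKSFM cells. This contrast was not seen with the window shift removed (described below). Both were then lower, Atp5a1 at -0.20 (adjusted p = 6.64e-05) and Atp5b at -0.20 (adjusted p = 7.61e-05). Atp5b lost its call without KSFM-Ca2+ replicate 2 (adjusted p = 0.0114) or without DKSFM replicate 1 or 3 (adjusted p = 0.0131 and 0.0106). The same held with a replicate block (adjusted p = 0.0119), without a trend (adjusted p = 0.0167) and with only the libraries named as combined (adjusted p = 0.0362). Atp5d and Atp5e of the central stalk were higher, with log2 fold changes of 0.33 and 0.29. Atp5d moved to 0.12 with the length and GC correction, and the Atp5e call was lost with only the libraries named as combined (adjusted p = 0.0102). Atp5b, Atp5d and Atp5e were named after their values were seen.

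The c ring, which turns with the proton flow, is built of a protein that 3 genes encode. Atp5g3 carried most of the coverage, with 1708, 1650.0 and 1729.5 and then 1769.7, 1779 and 1842, and did not pass the test (log2 fold change 0.08, adjusted p = 0.0303). Atp5g1 fell from 223, 215 and 226 to 185, 162 and 184 (log2 fold change -0.32 with a standard error of 0.05, adjusted p = 5.22e-04), a call lost with only the libraries named as combined (adjusted p = 0.0373) or with the window shift removed (adjusted p = 0.178). Atp5g2 fell from 53.4, 54.7 and 57.4 to 46.5, 44.9 and 46.7 (log2 fold change -0.26 with a standard error of 0.04, adjusted p = 3.63e-04), although 35.3% of its 85-base stretches occur in other genes. The summed coverage of the ring was 1985, 1919 and 2013 against 2001, 1986 and 2073, and these libraries overlapped. Of all members, 15 had at least 10% of their 85-base stretches in other genes, and the most affected, Atp5l, had 62.6% shared and a mean coverage of only 3.95 and 3.81.

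Structural subunits and assembly factors were also compared as classes. Of 78 tested structural members, 24 were higher, 34 (Cox6a2 among them) were lower and 20 did not pass, with a median of -0.03. That median was 0.06 without DKSFM replicate 3. Of 12 assembly factors, 3 were higher, 6 were lower and 3 did not pass, with a median of -0.19. Since the named assembly factors cover only complexes I and II, a wider list of 41 assembly factors outside the name rule was examined. Of these, 10 were higher, 22 were lower and 9 did not pass, with a median of -0.26. Their summed coverage was 3349, 3369.9 and 3443 against 2873, 2943 and 2879. The largest rise was that of Cox19, a copper-related factor of complex IV, with 45.6, 46.2 and 49.2 and then 119, 116 and 124 (log2 fold change 1.34 with a standard error of 0.04, adjusted p = 3.40e-08). Lyrm7, which helps to place the iron-sulfur protein of complex III, fell furthest, from 11.3, 10.9 and 11.7 to 5.398, 5.89 and 5.83 (log2 fold change -0.97 with a standard error of 0.07, adjusted p = 3.27e-06).

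The fold changes of members went with those of their chromosomal neighbours. For each member, the median log2 fold change of the tested non-member genes in its 20 Mb window was taken relative to all tested genes. Across 91 members (Cox6a2 left out), the fold change and this median had a Pearson correlation of 0.729 and a Spearman correlation of 0.719, where genes in the same window share the median and genes are not independent replicates. Across 12227 other genes the correlations were 0.193 and 0.323, with a window median that for these genes includes the gene itself.

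In windows whose median was below -0.2, 17 of 20 members were lower, and Ndufa13, Cox7c and Atp5l did not pass. In windows at 0.2 or above, 13 of 20 were higher, and Ndufs3 and Ndufaf6 were lower, the latter not without KSFM-Ca2+ replicate 1. In the 51 between, 15 were higher and 20 were lower. The same classes of windows held 3194, 2604 and 6429 other genes. Of these, 1869 and 619 were lower and higher in the low windows, 493 and 1465 in the high windows, and 2200 and 2236 in the rest. The members named here were picked after their values were seen.

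**Figure D5:**
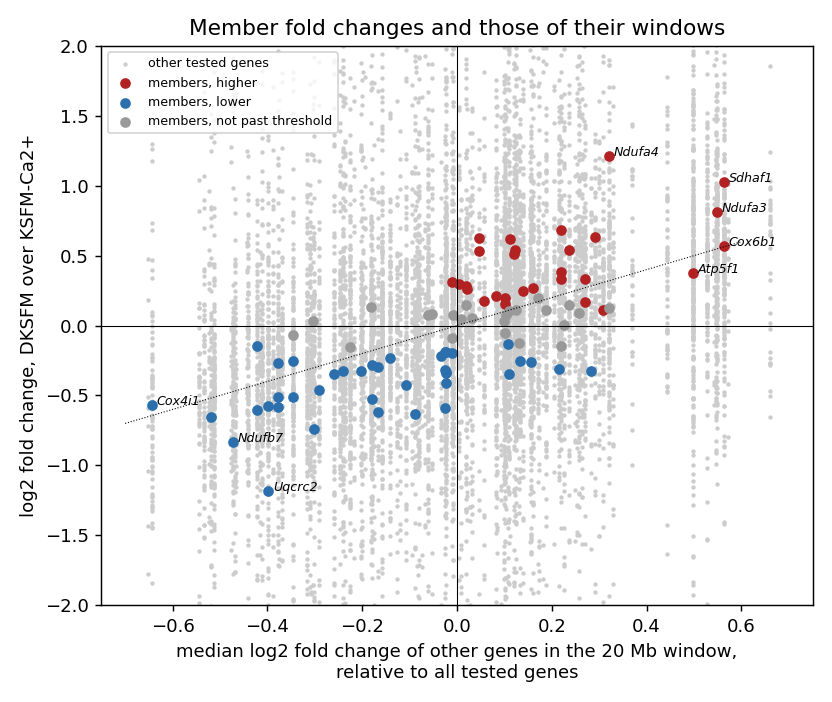
Log2 fold change of each tested gene (vertical axis, cut at 2 on either side) against the median of its 20 Mb window relative to all tested genes (horizontal axis). Members, coloured by call, run along the dotted line of equality, with Cox4i1 and Cox6b1 close to it and Ndufa4 and Uqcrc2 away from it.

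The genes named above differed in how far they stood from their windows. The window median was -0.64 for Cox4i1, whose own value was -0.57, and 0.56 for Cox6b1, whose own value was 0.57. For Ndufa4 it was 0.32 and for Uqcrc2 -0.40, both far from the genes' own values of 1.21 and -1.18. For Sdhaf1 it was 0.56, for Ndufa3 0.55 and for Ndufb7 -0.47. Within complex II it was -0.42 for Sdhc, -0.35 for Sdhd, -0.02 for Sdha and 0.11 for Sdhb.

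The window medians were also subtracted from the fold changes, a step chosen after the data were seen. Then 24 members were higher and 35 lower, and 1 was past 2-fold, namely Cox6a2, with the limit given above. The median of the complex II subunits moved from -0.55 to -0.21, while Sdha had -0.57 and was then the most reduced of them. Some called members turned in sign, among them Cox4i1 to 0.07, Cox5a to 0.09, Sdhaf4 to 0.11, Ndufv2 to -0.10 (its call also lost with no trend, adjusted p = 0.0102, and with only the libraries named as combined, adjusted p = 0.0408), Atp5b to -0.20 and Atp5f1 to -0.12. Ndufa4 kept a log2 fold change of 0.89 and Uqcrc2 of -0.78, while Sdhaf1 had 0.46. Values also shrank by over 1.5 times for Ndufa3 (0.27), Ndufb7 (-0.36), Ndufs1 (-0.17), Ndufs7 (0.17), Sdhc (-0.19), Sdhd (-0.16), Uqcr10 (0.35), Atp5a1 (-0.20) and Atp5d (0.11), and grew as much for Cyc1 (-0.39), Ndufs3 (-0.53), Sdhb (-0.24) and Atp5g2 (-0.42). Cox6b1, Cox7a2, Atp5g1, Uqcrh (adjusted p = 0.0217) and Uqcrq (adjusted p = 0.0637) were no longer past the threshold, while Cycs (-0.22, adjusted p = 0.00678), Atp5g3 (0.14, adjusted p = 0.00325) and Cox7c (0.34, adjusted p = 8.78e-05) passed it. The part of the neighbouring genes' shift in the members' changes was not tested.

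The promoters of the members were read from RefSeq (GRCm38.p6), as 300 bases around the start site, and 81 of the 100 members matched. They were searched on both strands for GCGCANGC, a short form of the site of NRF1, for CCGGAAG, an ETS core that GABPA can bind, and for AANATGGCG, a form of the YY1 site. These factors are known regulators of nuclear genes for mitochondrial proteins. GCGCANGC was in 28 of the 81 (34.6%), CCGGAAG in 20 (24.7%) and AANATGGCG in 10 (12.3%), against 9.95%, 8.86% and 2.38% of all 32851 promoters of the same length. These were not matched to the members in expression or GC content. Some genes have several among them, while 1 was taken per member, so the excess may not be particular to these genes. At least 1 of the 3 was in 14 of 27 promoters of higher members, in 14 of 27 of lower members and in 18 of 23 of members that did not pass the test. So the letters were as frequent in members that rose as in those that fell.

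Promoters are shown for 5 members of different behaviour, chosen after their values were seen, with matches in capitals. They are Ndufa4 (chr6:11907401-11907700, minus strand), which rose most, Uqcr11 (chr10:80406772-80407071, minus strand), which rose most in complex III, Sdha (chr13:74350191-74350490, minus strand) and Ndufb7 (chr8:83566508-83566807, plus strand), which fell, and Cycs (chr6:50566520-50566819, minus strand), which had overlapping groups. The Ndufa4 window holds none of the 3 motifs. Those of Uqcr11 and Ndufb7 hold CCGGAAG, those of Uqcr11 and Cycs hold GCGCANGC on the opposite strand, and that of Sdha holds it 3 times.
Ndufa4: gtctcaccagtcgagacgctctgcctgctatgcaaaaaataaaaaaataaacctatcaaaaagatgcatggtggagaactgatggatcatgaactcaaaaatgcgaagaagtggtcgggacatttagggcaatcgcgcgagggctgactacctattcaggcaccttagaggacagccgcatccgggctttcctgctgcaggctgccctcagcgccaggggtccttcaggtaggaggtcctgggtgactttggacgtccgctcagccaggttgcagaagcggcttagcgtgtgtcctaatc
Uqcr11: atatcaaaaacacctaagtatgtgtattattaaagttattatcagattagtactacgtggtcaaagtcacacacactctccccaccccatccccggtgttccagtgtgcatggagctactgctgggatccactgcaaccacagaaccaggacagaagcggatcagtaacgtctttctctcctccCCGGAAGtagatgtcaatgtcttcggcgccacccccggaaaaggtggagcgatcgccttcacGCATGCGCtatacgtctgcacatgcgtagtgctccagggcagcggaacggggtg
Sdha: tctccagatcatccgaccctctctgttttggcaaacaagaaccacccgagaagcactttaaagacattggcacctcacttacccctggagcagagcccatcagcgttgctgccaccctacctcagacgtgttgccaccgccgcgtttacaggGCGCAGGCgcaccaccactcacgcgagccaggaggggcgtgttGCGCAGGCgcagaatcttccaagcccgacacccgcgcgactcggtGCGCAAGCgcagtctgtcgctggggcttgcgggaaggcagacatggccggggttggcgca
Ndufb7: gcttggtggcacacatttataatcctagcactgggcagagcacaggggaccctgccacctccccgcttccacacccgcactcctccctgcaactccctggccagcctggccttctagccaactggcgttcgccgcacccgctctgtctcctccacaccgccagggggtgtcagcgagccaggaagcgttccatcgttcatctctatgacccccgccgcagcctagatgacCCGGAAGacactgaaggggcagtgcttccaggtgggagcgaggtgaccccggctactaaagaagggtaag
Cycs: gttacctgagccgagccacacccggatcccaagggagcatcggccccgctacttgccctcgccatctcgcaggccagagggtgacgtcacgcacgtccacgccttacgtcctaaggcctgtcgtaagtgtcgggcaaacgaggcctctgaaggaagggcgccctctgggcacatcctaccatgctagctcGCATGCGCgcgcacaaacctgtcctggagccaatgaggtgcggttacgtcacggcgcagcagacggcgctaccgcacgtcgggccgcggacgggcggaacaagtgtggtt

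The regulators themselves were of mixed direction. Of 22 genes that control respiratory chain genes or mitochondrial DNA, 7 were higher (31.8%), 6 were lower (27.3%) and 9 did not pass, with a median of 0.09. Among all tested genes 35.3% were higher and 37.3% lower. Ppargc1a, the coactivator PGC-1 alpha, was listed at 0 in all KSFM-Ca2+ libraries, and DKSFM replicates 1 to 3 listed it at 0.8, 1.2 and 1. It counts among the 7 higher genes but passed the filter only through the DKSFM libraries, so no fold or rank is given. Gabpb1, the partner of GABPA, fell furthest, from 80.1, 77.5 and 78.9 to 41.8, 41.6 and 43.0 (log2 fold change -0.90 with a standard error of 0.03, adjusted p = 7.88e-08). Chosen for the motifs above, Nrf1 fell from 74.5, 76.8 and 74.6 to 57.9, 61.5 and 61.3 (log2 fold change -0.32 with a standard error of 0.04, adjusted p = 5.76e-05) and Yy1 rose from 63.5, 65.3 and 63.5 to 85.9, 90.1 and 90.2 (log2 fold change 0.47 with a standard error of 0.03, adjusted p = 3.58e-06). Gabpa had 24.2, 24.5 and 23.1 and then 23.0, 24.9 and 23.2, and the groups overlapped (adjusted p = 0.788).

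Other mitochondrial gene groups were read beside the chain. Of 14 citric acid cycle genes, 4 were higher, 8 were lower and 2 did not pass, with a median of -0.19. Idh2, the NADP-dependent isocitrate dehydrogenase, had the largest rise, from 38.0, 36.2 and 36.1 to 171, 170.0 and 168 (log2 fold change 2.20 with a standard error of 0.03, adjusted p = 1.00e-09), and Idh3a, a subunit of the NAD-dependent enzyme, the largest fall, from 131, 129 and 132 to 81.5, 83.4 and 79.1 (log2 fold change -0.68 with a standard error of 0.03, adjusted p = 2.62e-07). Of 75 mitochondrial ribosomal protein genes, 12 were higher, 39 were lower and 24 did not pass, with a median of -0.17. The extremes were Mrpl36 at 0.71 and Mrps28 at -0.99. Of 23 tested protein import genes of the Tomm and Timm families, 3 were higher, 11 were lower and 9 did not pass, with a median of -0.16. Timm29 had the largest rise, 0.45, and Timm17a, of the inner membrane channel, the largest fall, from 559.9, 559.8 and 593 to 256, 265 and 255 (log2 fold change -1.14 with a standard error of 0.03, adjusted p = 1.87e-08).

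Of 7 carriers of ADP, ATP, phosphate and protons, 3 were tested. Slc25a3, the phosphate carrier, rose from 417, 407 and 423 to 561, 549.8 and 554 (log2 fold change 0.42 with a standard error of 0.03, adjusted p = 1.55e-06), and the ADP/ATP carrier Slc25a4 fell from 374, 381 and 404 to 222, 203 and 213 (log2 fold change -0.86 with a standard error of 0.04, adjusted p = 3.61e-07). The more abundant ADP/ATP carrier Slc25a5 had 758, 767 and 811 and then 757, 801 and 774, and its libraries overlapped (adjusted p = 0.966). The median of the 3 was 0.00. Of 2 ATP synthase proteins outside the name rule, with a median of 0.48, the inhibitor Atpif1 rose from 78.1, 71.7 and 82.4 to 158, 159 and 141 (log2 fold change 0.98 with a standard error of 0.06, adjusted p = 1.84e-06), and Usmg5, a small membrane subunit, had 599, 616 and 680.3 and then 662, 628 and 594 (adjusted p = 0.898).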

How the data were processed

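Poly(A) RNA isolated from total RNA was sequenced for 3 KSFM-Ca2+ and 3 DKSFM libraries. According to the submitters' processing notes and the study's methods, the authors used bcl2fastq and STAR with the mm10 genome, and named DESeq2 for their own comparison. The deposited values are signal, the mean read coverage per base of each gene to 1 decimal, not scaled to library size; how the coverage was computed is not given in the sources used here. Coverage is not a count, so no count model was used.

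Coverage was scaled by trimmed means of M values computed by hand, without weights (trims of 30% and 5%), and genes at 0.5 or more in at least 3 libraries were tested with limma 3.58.1 (R 4.3.3), with a trend, on log2(normalized coverage + 0.1). P-values were adjusted by Benjamini-Hochberg over all 12409 tested genes, with thresholds of 0.01 and 2-fold. The fit was tested on simulated data: most 2-fold changes were recovered and most smaller ones were missed. The recovery it had to reach was then set for 2-fold changes only. The simulation altered far fewer genes than were called in these data, so its recovery rates need not hold here. Small changes may still be missed. The members and lists were chosen with earlier results of these data known.

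Genes were named by rule: Cyc1 and Cycs; per complex the most abundant member and the largest structural rise and fall; the assembly factors with the largest rise and fall; members past 2-fold; isoform sets; and the extremes of each list. Positions, transcript lengths and shared stretches of 85 bases came from GENCODE on GRCm38, the same build. All 100 members were matched, and 428 other genes were not. Alternatives were other scalings, filters, pseudocounts, no trend, a length and GC correction, a replicate block, libraries left out, a threshold of 0.05 and removal of the window shift. Figures were drawn with matplotlib 3.10.9 in Python 3.11.15.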

Additional observations from a re-analysis of the deposited data

How the results depend on the processing

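Quantile normalization gave 34 members higher and 35 lower, against 28 and 40 in the main fit, so the excess of lower members was not seen there. Without each library in turn, 24 to 30 members were higher, 35 to 41 were lower and 3 to 5 were past 2-fold. With the 4 libraries whose files are named as combined (KSFM-Ca2+ replicate 3 and all DKSFM libraries), 18 were higher and 24 lower; that fit has fewer samples, and a lone KSFM-Ca2+ library is assumed to vary like the others. What combined means is not given in the sources used here. With the 20 Mb window shift removed, chosen after seeing the data, 1 was past 2-fold in place of 4, and signs turned, among others for Cox4i1 (0.074), Atp5f1 (-0.12), Ndufv2 (-0.10) and Atp5b (-0.20). The cause was not tested. Of the 68 called members, 62 kept their call and direction under quantile normalization, 59 without a trend, 65 with the length and GC correction, 47 with the window shift removed and 42 with only the libraries named as combined.

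Of 665 values of most named members under other settings, 626 kept direction and side of the threshold, 29 kept direction but missed the threshold, 1 kept direction and newly passed it (Atp5g3) and 4 turned. The other 5 were of Cycs, whose main value is near 0: its sign turned, and it passed only with the window shift removed (-0.22, adjusted p = 0.00678). The median of the complex IV structural subunits ran from -0.12 to 0.14 and that of the complex I membrane arm from -0.03 to 0.13. Same-numbered libraries did not deviate together (correlations -0.01, 0.02 and -0.01), so no pairing by number was seen. With 3 libraries per group this check cannot exclude a shared culture or preparation. With a replicate block, 27 members were higher, 40 lower and 4 past 2-fold, and Atp5b, Ndufc1 and Ndufaf4 lost their calls. The files give no depth per gene, so values near the 0.1 step, as for Cox6a2, are uncertain.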
